A study of Arabidopsis thaliana with 42 samples.

Results

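The comparison asked how the transcript response of an Arabidopsis leaf to 6 d of darkness differed between WT and the stay-green mutant *rpn12a-236*, and which genes responded in opposite directions in the 2 genotypes. For each gene the difference between 6 d and 0 d was taken in each genotype, and the WT difference was subtracted from that of the mutant. This used 12 of the 42 RNA-seq libraries of the series, chosen by their labels alone: light-grown leaves of WT Col-0 and of *rpn12a-236* at 0 d, and individually darkened leaves (IDLs, leaves covered singly on a plant that stays in the light) after 6 d, with 3 libraries in each of the 4 groups. All plants were grown in short days and all 12 libraries came from leaf blades harvested at 8 am, each from a pool of leaves that came from separate plants. *rpn12a-236* is an EMS-mutagenized and backcrossed line in Col-0 with a premature stop in RPN12a. It is 1 line, and it carries other homozygous coding changes on chromosome 1, so that RPN12a and those changes cannot be told apart here. Light leaves of the mutant exist for 0 d only, whereas those of WT were collected at 6 d as well.

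The values are z-scores, scaled gene by gene to mean 0 and SD 1 across the 42 libraries, so every difference below is in z-score units, that is in units of the SD of that gene over the series, and neither fold changes, levels nor sequencing depth can be read from them. Of 27050 genes deposited, 23016 were tested with limma. A gene was called at a Benjamini-Hochberg adjusted p of at most 0.01 over all genes tested. Errors given as ± are standard errors from that fit with n = 3 libraries per group unless an SD is named. Between replicates of a group the median SD per gene was 0.259 to 0.431, and it was highest in darkened *rpn12a-236*, where replicate 2 stood apart (mean correlation of 0.648 with the rest of its group, against 0.723 for each of the others). Since the tissue was bulk, fewer cells of a type and less RNA per cell cannot be told apart.

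A leaf kept in darkness stops photosynthesis, consumes its reserves and then dismantles its chloroplasts, and the nitrogen set free is exported to the rest of the plant. Jasmonate, ethylene and abscisic acid (ABA) promote this process and cytokinin delays it. The 26S proteasome takes part in hormone signalling because many repressors and activators of hormone responses are marked with ubiquitin and degraded. RPN12a is a subunit of the lid of its regulatory particle.

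The changed codon lies in the last of the 6 coding exons of *RPN12a* (AT1G64520). It is shown here because it defines the genotype. The stretch below is the reference sequence of TAIR10.1 at chr1:23957992-23958054, plus strand, with codon 236 of 267 in capitals.
RPN12a codon 236: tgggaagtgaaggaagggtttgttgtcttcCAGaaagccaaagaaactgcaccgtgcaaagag

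The *RPN12a* transcript itself separated the genotypes. Its z-scores were -0.912, -0.741 and -0.847 in WT at 0 d and -0.364, -0.424 and -0.457 in WT at 6 d, against 1.37, 1.28 and 1.19 in *rpn12a-236* at 0 d and 1.33, 1.43 and 1.33 at 6 d. All 6 mutant libraries lay above all 6 WT libraries, and the interaction was not called (-0.336 ± 0.209, adjusted p = 0.255 in limma). Most subunits of the complex were likewise higher in the mutant at both times: of 48 proteasome subunits, 46 were called higher at 0 d and 46 at 6 d, but only RPN3b (interaction -3.46) and RPN5b (0.856) were called in the interaction. RPN3b was called higher after darkness in WT by 2.06, and its difference in the mutant was -1.40 (adjusted p = 0.0134). It was the 1 subunit called lower in the mutant than in WT at 6 d (difference -2.02). The RPN5b call did not hold in every fit without 1 library (highest adjusted p = 0.0261).

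The interaction was called for 3866 genes. The mutant response was the more positive in 1867 of them (8.11% of the genes tested, here called higher) and the more negative in 1999 (8.69%, called lower). Each genotype alone had more calls: in WT 5241 genes rose (22.8%) and 6073 fell (26.4%), and in *rpn12a-236* 5376 rose (23.4%) and 6113 fell (26.6%). Of the 7856 genes called in both genotypes, 7508 moved in the same direction in both. Among the 3866 genes with an interaction, 923 moved the same way in both genotypes, by more in WT for 500 and by more in the mutant for 423. A further 1246 were called in the WT response alone, 1302 in the mutant response alone and 47 in neither. The remaining 348 were called in both responses with opposite signs.

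These 348 opposite responders fell into 190 genes that rose in WT and fell in *rpn12a-236* (0.826% of the genes tested) and 158 that fell in WT and rose in *rpn12a-236* (0.686%). In the first class the median difference was 1.56 in WT and -1.49 in the mutant. In the second it was -1.43 in WT and 1.47 in the mutant. These sizes follow from the way the classes were chosen. IDL and light libraries did not overlap in either genotype for 189 of the 190 and for all 158 genes. This too follows from the choice of the classes. There were 10 and 3 genes with a library at the floor, the lowest value shared by libraries where a transcript was near undetected. At the edge of the rule, AT5G58530, with 0.967 in WT and -0.887 in the mutant, was just inside (adjusted p = 0.00997 for the mutant response), and VTE5, with 1.88 and -1.23, was just outside.

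**Figure D1:**
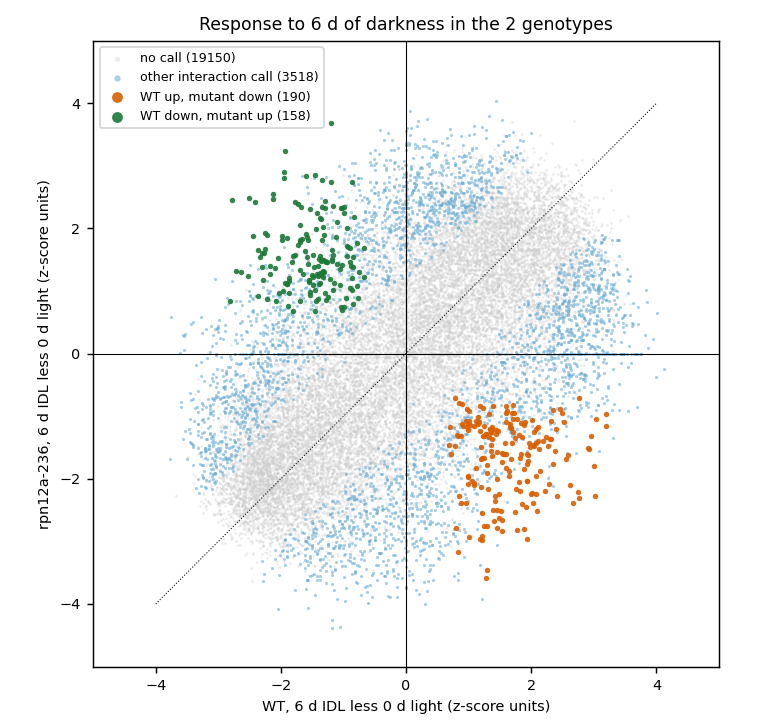
Difference between 6 d IDLs and 0 d light leaves in WT (x axis) and *rpn12a-236* (y axis), both in z-score units, for the 23016 genes tested, each point being 1 gene. The 190 genes that rose in WT and fell in the mutant lie at the lower right and the 158 of the reverse class at the upper left, and the other genes called in the interaction are coloured apart.

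The genotypes differed at 6 d for 7406 genes (32.2%) and at 0 d for 2911 (12.6%). Among the 190 genes that rose in WT and fell in the mutant, 167 differed between the genotypes at 6 d, all of them lower in the mutant, and 75 differed at 0 d, of which 67 were higher in the mutant. For 114 the genotypes differed at 6 d but not at 0 d, and for 45 they differed at both times with their order exchanged. Among the 158 genes of the reverse class, 149 differed at 6 d, all higher in the mutant, and 59 at 0 d, of which 55 were lower in the mutant. Here 99 differed at 6 d only and 46 at both times with the order exchanged. The genotype comparisons share the libraries from which the classes were chosen, so these counts are descriptions. Leaving out any 1 of the 6 light libraries gave 1560 to 1876 genes that differed at 0 d.

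Libraries outside the 12 gave a further measure. In IDLs at 3 d, from a fit to the 18 IDL libraries of 6 h, 1 d and 3 d, 3296 of 23476 genes were higher in the mutant (14%) and 3240 were lower (13.8%). Of the 190 genes that rose in WT and fell in the mutant by 6 d, 102 were already lower in the mutant at 3 d (53.7%) and 5 were higher. Of the 158 genes of the reverse class, 69 were already higher in the mutant at 3 d (43.7%) and 17 were lower. Against WT leaves kept in the light for 6 d in place of 0 d, the WT rise was still called for 151 of the 190 genes and the WT fall for 106 of the 158, and no gene was called in the other direction. With that control, 144 and 102 of these genes were opposite responders. Of the 38 opposite responders named here, 13 lost the WT call with it: OPT1, STE14A, ARO4, CYP79F2, ORP2B, ETFBETA, CDC2, FASS, HAI2, GBF3, HB-12, ABF2 and ABF3.

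Among genes that rose in WT and fell in the mutant, VNI2 (AT5G13180), a NAC transcription factor known as a repressor in xylem vessel formation, had the lowest interaction p of the genes named. Its z-scores were 0.304, 0.241 and 0.200 in WT at 0 d and 2.37, 2.41 and 2.37 at 6 d, and in *rpn12a-236* 0.424, 0.481 and 0.618 at 0 d and -1.3, -1.25 and -1.54 at 6 d. The 3 darkened mutant libraries lay below and the 3 darkened WT libraries above all 6 light libraries. The WT difference was 2.14 ± 0.154 and the mutant difference -1.87 ± 0.154 (interaction -4.01 ± 0.218, adjusted p = 2.1e-05 in limma). At 0 d no genotype difference was called (0.260, adjusted p = 0.251), and at 3 d the mutant was lower (difference -2.12, adjusted p = 1.5e-05).

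GLN1;2 (AT1G66200), a cytosolic glutamine synthetase that packs ammonium into the amino acid exported from ageing leaves, had the same shape. WT values were 0.0974, 0.434 and 0.214 at 0 d and 1.97, 2.1 and 1.90 at 6 d, whereas the mutant went from 0.176, 0.444 and 0.117 to -2.64, -1.95 and -2.28. Light leaves of the genotypes overlapped and darkened leaves lay on opposite sides of them. The WT difference was 1.74 ± 0.208 and the mutant difference -2.53 ± 0.208. Its paralogue GLN1;1 rose in WT by 3.48 and had a difference of 0.350 in the mutant (adjusted p = 0.221). NRT1.7, a phloem nitrate transporter that moves nitrate out of old leaves, had 0.225 in WT (adjusted p = 0.382) and fell in the mutant (-2.98). Of 14 tested genes of nitrogen and carbon remobilization, these 3 were called lower in the interaction and 0 were called higher, and 1 was called higher without replicate 2 of the darkened mutant.

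CKX5 (AT1G75450), which breaks down cytokinin, was at -0.576, -0.739 and -0.762 in WT at 0 d and at 2.22, 2.28 and 2.32 at 6 d. In the mutant it was at -0.193, 0.203 and 0.559 and then at -1.24, -0.962 and -1.17. The WT difference was 2.96 ± 0.204 and the mutant difference -1.31 ± 0.204, and the genotypes lay far apart in darkness. Of 18 tested cytokinin genes, CKX4, CKX5 and CKX7 were called lower (16.7%). The response regulators ARR8 and ARR9 were called higher (11.1%), since they fell less in the mutant (-0.952 and -0.957) than in WT (-2.60 and -2.54). The median interaction over the 18 genes was -0.379.

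EBF1 (AT2G25490), an F-box protein that targets the ethylene factor EIN3 for degradation, went from -0.242, -0.733 and -0.593 to 1.11, 1.07 and 1.11 in WT and from -0.132, 0.255 and 0.156 to -0.895, -1.03 and -0.562 in the mutant. At 3 d it was lower in the mutant than in WT (difference -3.35, adjusted p = 7.2e-07). The mutant response of EBF1 was not called in every fit without 1 library (highest adjusted p = 0.0104). The ethylene receptor ETR2 rose in both genotypes, by 2.49 in WT and 1.14 in the mutant. With EBF1 it was called lower, and ACS6, an ethylene synthesis gene, was the 1 of 19 ethylene genes called higher, a call that did not hold in every fit without 1 library (highest adjusted p = 0.0179).

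The named genes with the largest opposite responses in this class were of several kinds. OPT1 (AT5G55930), an oligopeptide transporter, was at -1.16, -1.63 and -1.88 in WT at 0 d and at 0.951, 1.11 and 1.48 at 6 d, and in the mutant at -0.0823, -0.0731 and 1.53 and then at -1.95, -1.86 and -1.45. The third mutant light library of OPT1 stood above the other two. AtIPCS2 (AT2G37940), which makes inositol phosphorylceramide, was at -0.689, -0.343 and -0.751 and then at 1.02, 1.22 and 1.76 in WT, and at -0.227, -0.00310 and 0.241 and then at -1.96, -1.91 and -2.21 in the mutant. SULTR4;1, a vacuolar sulfate exporter, had 2.02 in WT and -2.38 in the mutant. The zinc-finger factor ZF3 had 2.09 ± 0.350 in WT and -2.52 ± 0.350 in the mutant. HAE, the receptor kinase known for floral organ abscission, had 2.07 in WT and -1.95 in the mutant. COBL8, NIT3, ARO4 and STE14A had WT differences of 2.41, 1.99, 1.94 and 3.02 and mutant differences of -2.27, -2.25, -2.96 and -2.28. NIT3 is a nitrilase, and STE14A methylates prenylated proteins. These 4 were higher in the mutant than in WT at 0 d, by 2.55, 2.60, 3.65 and 2.67. The WT response of ARO4 and the mutant response of STE14A did not hold in every fit without 1 library (highest adjusted p of 0.0237 and 0.0231).

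By product name, 17 of 694 tested protein kinases belonged to the class that rose in WT and fell in the mutant (2.45%) and 1 to the reverse class. Over the whole interaction 140 kinases were called lower (20.2%) and 38 higher (5.48%). Transporters gave 15 of 549 genes in the first class (2.73%) and 7 in the second (1.28%). Over all genes tested the shares of the 2 classes were 0.826% and 0.686%. The sets of kinases and transporters were added after values had been seen.

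**Figure D2:**
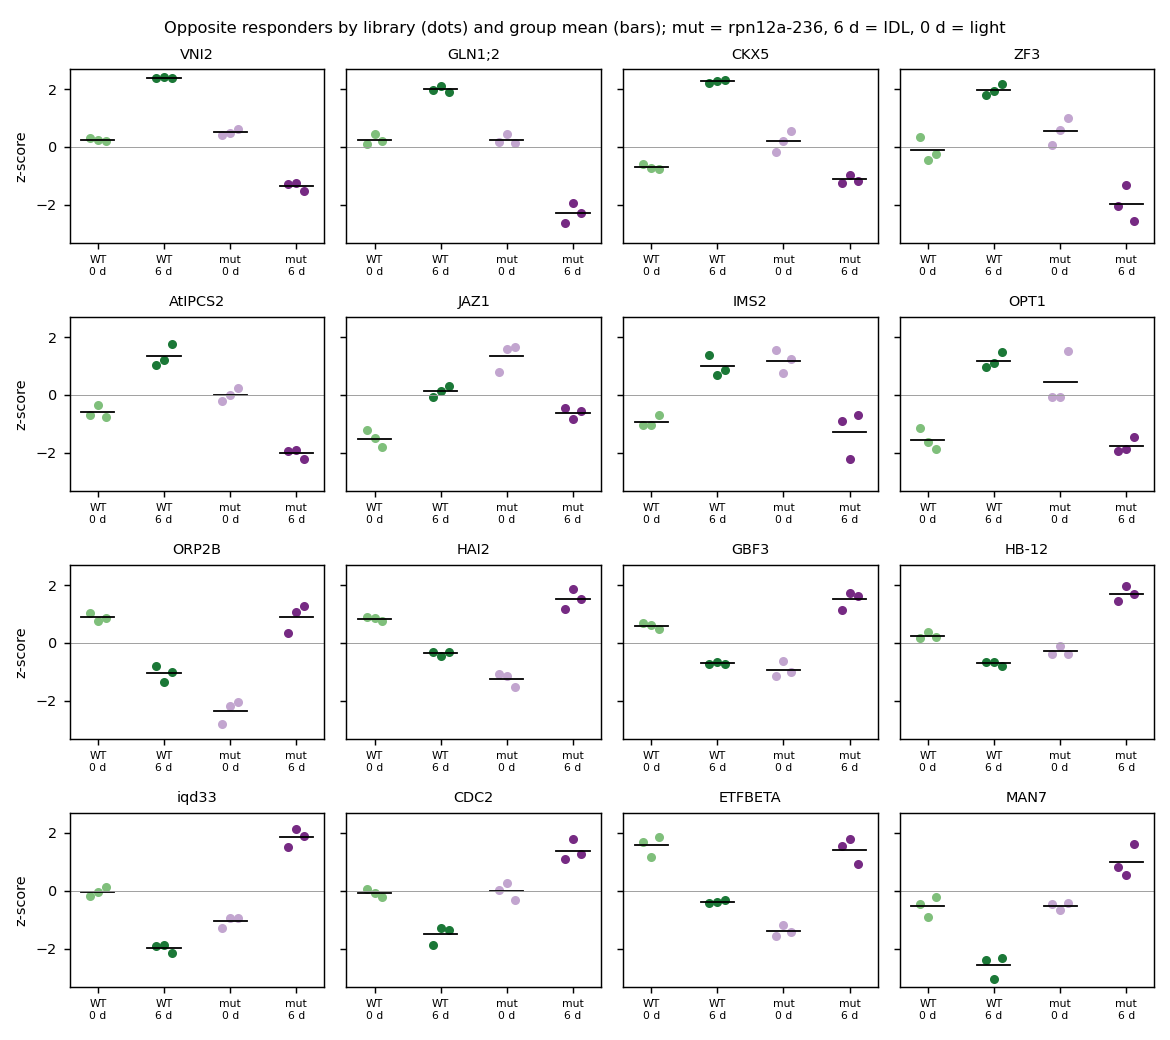
z-score (y axis) of 16 opposite responders in each of the 12 libraries, with 1 panel per gene, 1 dot per library and a bar for the mean of 3. In the upper 8 panels the WT dots rise and the *rpn12a-236* dots fall from 0 d light to 6 d IDLs, as for VNI2 from 0.424, 0.481 and 0.618 to -1.3, -1.25 and -1.54 in the mutant, and in the lower 8 panels the reverse is seen.

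Among genes that fell in WT and rose in the mutant, ORP2B (AT4G12460), named for its relation to oxysterol-binding proteins, had the highest interaction of those named (5.17 ± 0.409, adjusted p = 6.2e-05 in limma). It was at 1.02, 0.767 and 0.875 in WT at 0 d and at -0.797, -1.35 and -1.0 at 6 d, and in the mutant at -2.80, -2.18 and -2.06 and then at 0.326, 1.06 and 1.29. The genotypes were thus apart in the light with the mutant lower, and apart in darkness with the mutant higher. ETFBETA (AT5G43430), the electron transfer flavoprotein subunit that passes electrons from the breakdown of branched-chain amino acids to respiration, went from 1.7, 1.17 and 1.86 to -0.415, -0.394 and -0.311 in WT and from -1.57, -1.17 and -1.43 to 1.56, 1.78 and 0.927 in the mutant. Against WT light leaves of 6 d its WT difference was 0.201 in place of -1.95, and was not called (adjusted p = 0.591).

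CDC2 (AT3G48750), the main cyclin-dependent kinase of the cell cycle, was at 0.0515, -0.0888 and -0.225 in WT at 0 d and at -1.87, -1.28 and -1.34 at 6 d. In the mutant it was at 0.0365, 0.262 and -0.326 in the light and at 1.1, 1.80 and 1.26 in darkness. The genotypes overlapped in the light and were apart in darkness, and at 3 d CDC2 was already higher in the mutant by 2.58 (adjusted p = 4.4e-07). iqd33 (AT5G35670), a calmodulin-binding IQ-domain protein, was at -0.164, -0.0476 and 0.117 and then at -1.90, -1.89 and -2.15 in WT, and at -1.29, -0.932 and -0.943 and then at 1.53, 2.13 and 1.91 in the mutant. The darkened groups of iqd33 were again on either side of all light libraries. MAN7, a cell wall mannanase, had -2.04 ± 0.310 in WT and 1.53 ± 0.310 in the mutant. ATNTT2, a plastid ATP/ADP exchanger, had -1.36 in WT and 1.48 in the mutant. FASS, a phosphatase subunit that orders cortical microtubules, had -1.35 in WT and 1.82 in the mutant. Against WT light leaves of 6 d, the WT difference of FASS was 0.439 and was not called. WIP2 (AT5G56210) and the zinc-finger gene OZF1 had -2.1 and -1.7 in WT and 1.37 and 1.78 in the mutant. The WT response of FASS and the mutant response of WIP2 did not hold in every fit without 1 library (highest adjusted p of 0.0251 and 0.0130).

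Peroxins build peroxisomes and bring proteins into them. Of 18 tested peroxins, by product name, 9 were called higher in the interaction and 0 lower, with a median interaction of 1.44 against 0.0440 over all genes. Ribosomal proteins, another set taken by product name, gave 11 of 324 in the class that fell in WT and rose in the mutant and 0 in the reverse class. In the whole interaction 88 of them were called higher (27.2%) and 2 lower, with a median WT difference of -1.31 and a median mutant difference of 0.0274. Of 32 subunits of the vacuolar proton pumps, 5 were called higher (15.6%) and 1 lower (3.12%). Their median interaction was 0.0829, with 16 positive and 16 negative. These 3 sets were added after values had been seen. Without replicate 2 of the darkened mutant, 71 of 323 ribosomal proteins were called higher and 1 lower, of the peroxins 8 and 1, and of the proton pumps 10 and 3.

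ABA genes were found in this class too. ABA signals when type 2C protein phosphatases (PP2Cs) are inhibited by its receptors, and the genes of these phosphatases are themselves known to rise with ABA. HAI2 (AT1G07430), a PP2C, was at 0.900, 0.863 and 0.749 in WT at 0 d and at -0.308, -0.453 and -0.312 at 6 d. In the mutant it was at -1.07, -1.14 and -1.52 and then at 1.16, 1.86 and 1.5. The mutant was lowest in the light and highest in darkness, with no overlap of the 4 groups. ABI2 (AT5G57050), another PP2C, went from 1.22, 1.14 and 0.941 to -0.393, -0.366 and -0.592 in WT and from 0.00360, -0.00400 and -0.181 to 0.861, 1.52 and 0.897 in the mutant. Against WT light leaves of 6 d, the WT fall of ABI2 was called (adjusted p = 0.00297) and that of HAI2 was not (adjusted p = 0.131).

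Of 19 ABA genes tested, 10 were called higher in the interaction (52.6%) and 0 lower. The median difference was -0.712 in WT and 1.14 in the mutant. The 10 were the PP2C genes ABI1, ABI2, HAB1, PP2CA, HAI1 and HAI2, the synthesis gene NCED3 and the target genes RAB18, RD29A and RD29B. NCED3 (AT3G14440), which carries out the rate-limiting step of ABA synthesis, was at -0.00875, -0.346 and -0.341 in WT at 0 d and at -0.531, -0.979 and -1.40 at 6 d, a difference that was not called, and rose in the mutant from -1.57, -0.272 and -0.324 to 1.25, 2.08 and 2.11. Earlier, at 1 d in darkness, the mean of NCED3 was 1.32 in WT and 1.26 in the mutant. RAB18 (AT5G66400), a dehydrin induced by ABA, was at -0.275, -0.197 and -0.337 and then at 0.324, 0.0934 and -0.366 in WT, and at -0.996, -0.524 and -0.679 and then at 2.17, 2.84 and 3.08 in the mutant. Only the darkened mutant stood apart for RAB18. RD29A was called higher without a called rise in the mutant (-0.326, adjusted p = 0.344), having -2.08 in WT. The genes CYP707A1, CYP707A2 and CYP707A3, which break down ABA, had interactions of 0.677, -0.802 and 0.342, which were not called. Without replicate 2 of the darkened mutant, 8 of 18 ABA genes were called higher and 0 lower.

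A set of 11 factors and proline enzymes that act with ABA and drought, put together after values had been seen, gave 9 calls higher, of which 8 were opposite responders. GBF3 (AT2G46270), a bZIP factor that binds G-boxes, went from 0.695, 0.602 and 0.478 to -0.735, -0.658 and -0.734 in WT and from -1.16, -0.622 and -1.0 to 1.15, 1.74 and 1.63 in the mutant. HB-12, a homeodomain factor, had -0.949 in WT and 2.00 in the mutant. The bZIP factors ABF2 and ABF3, which act directly in ABA transcription, had -1.44 and -1.0 in WT and 0.837 and 0.743 in the mutant. P5CS1 and P5CR, enzymes of proline synthesis from glutamate, had -2.03 and -1.32 in WT and 0.972 and 1.3 in the mutant. The ubiquitin ligase PUB19 and the NAC factor NAC032 had -1.65 and -1.48 in WT and 1.28 and 1.09 in the mutant. ATAF1 (AT1G01720), a NAC factor from the list of senescence factors, went from 0.885, 0.560 and 0.446 to -0.391, -0.167 and -0.665 in WT and from -1.06, -1.01 and -0.733 to 1.1, 1.72 and 1.34 in the mutant. The mutant responses of ABF2, P5CS1 and NAC032 and the WT response of ATAF1 did not hold in every fit without 1 library (highest adjusted p of 0.0147, 0.0239, 0.0245 and 0.0106).

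The 250 bases upstream of the genes were read in TAIR10.1 for the ABA-responsive core ACGTG on either strand, which a G-box (CACGTG) contains, because ABF and GBF proteins bind such sequences. The core was present before 22.9% of 22799 genes tested, before 52 of the 158 genes that fell in WT and rose in the mutant (32.9%) and before 38 of the 190 of the reverse class (20%). A G-box was present in 7%, 12.7% and 5.26%. The core was also frequent in lists that moved in either direction, before 10 of 19 ABA genes (52.6%), 14 of 24 jasmonate genes (58.3%) and 11 of 22 glucosinolate genes (50%). These shares are descriptions, and a match is not a bound site. The upstream sequences of HAI2 (chr1:2282829-2283078, minus strand) and GBF3 (chr2:18999930-19000179, plus strand), the named ABA-related genes with the highest interactions, are shown with every match in capitals. GBF3 holds 2 G-boxes. The same window of ABI2, an opposite responder of the same class, holds 0 matches of the core, and that of AOC1, of the reverse class, holds 1.
HAI2: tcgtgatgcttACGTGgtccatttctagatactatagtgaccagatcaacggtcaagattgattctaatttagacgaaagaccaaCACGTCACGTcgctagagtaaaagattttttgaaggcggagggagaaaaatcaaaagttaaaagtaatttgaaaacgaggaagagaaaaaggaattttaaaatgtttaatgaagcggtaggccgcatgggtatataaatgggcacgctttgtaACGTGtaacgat
GBF3: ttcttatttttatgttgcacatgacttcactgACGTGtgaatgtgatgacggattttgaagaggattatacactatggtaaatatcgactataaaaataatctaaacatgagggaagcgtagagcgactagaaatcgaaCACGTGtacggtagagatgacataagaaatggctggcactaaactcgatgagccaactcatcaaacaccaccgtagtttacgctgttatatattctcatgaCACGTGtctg

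Jasmonate genes moved the other way. JAZ proteins repress jasmonate responses until the hormone marks them for the proteasome, and JAZ transcripts are known to rise with the hormone. Of 24 jasmonate genes tested, 13 were called lower in the interaction (54.2%) and 0 higher, with a median difference of -0.479 in WT and -2.40 in the mutant. At 0 d 19 of the 24 were called higher in the mutant and 1 lower, and at 6 d 4 were higher and 4 lower. JAZ1 (AT1G19180) was at -1.23, -1.51 and -1.80 in WT at 0 d and at -0.0616, 0.124 and 0.318 at 6 d, and in the mutant at 0.806, 1.58 and 1.64 and then at -0.472, -0.832 and -0.547. The WT difference was 1.64 ± 0.258 and the mutant difference -1.96 ± 0.258. AOC1 (AT3G25760), an allene oxide cyclase of jasmonate synthesis, was at -0.506, -0.457 and -0.637 and then at 0.349, 0.495 and 0.179 in WT, and at 2.82, 2.79 and 2.85 and then at 0.307, 0.872 and 0.143 in the mutant. Darkened leaves of the genotypes overlapped for AOC1 while light leaves were far apart. The WT rise of AOC1 did not hold in every fit without 1 library (highest adjusted p = 0.0172).

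All 13 genes called lower fell in the mutant. Among them the mutant differences were -2.88 for JAZ6, -1.93 for JAZ2, -2.99 for the transcription factor MYC2, -3.86 for the synthesis enzyme OPR3, and -2.25 and -2.41 for the storage protein genes VSP1 and VSP2. The WT differences of JAZ6, JAZ2, MYC2, OPR3, VSP1 and VSP2 were 0.747, 1.41, -0.595, -0.726, 1.14 and 1.11, none of which was called. LOX2, COI1, JAZ3 and JAZ4 had interactions of 0.0831, 0.0679, 0.328 and -0.124, which were not called. Without replicate 2 of the darkened mutant, 13 of 24 were again called lower and 0 higher.

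Genes that make glucosinolates, the sulfur-rich defence compounds of the cabbage family, had the highest share of lower calls among the lists, although this list was added after values had been seen. Of 22 tested, 17 were called lower in the interaction (77.3%) and 0 higher, and all 22 fell in the mutant whereas 9 fell and 2 rose in WT. The median difference was -0.634 in WT and -3.21 in the mutant. IMS2 (AT5G23020), which elongates the methionine chain, was at -1.06, -1.04 and -0.682 in WT at 0 d and at 1.38, 0.701 and 0.865 at 6 d, and in the mutant at 1.55, 0.764 and 1.24 and then at -0.892, -2.21 and -0.707. SOT17, the sulfotransferase of the last core step, was at 0.556, 0.566 and 0.665 and then at 0.497, 0.383 and 0.129 in WT, and at 1.64, 1.60 and 1.81 and then at -2.62, -1.74 and -2.27 in the mutant. The darkened mutant was below all other libraries of SOT17. CYP79F2, which makes aldoximes of the elongated chains, had 1.3 in WT, a call that did not hold in every fit without 1 library (highest adjusted p = 0.0316), and -2.75 in the mutant. MAM1 had 0.772 in WT (adjusted p = 0.0924) and -3.56 in the mutant. Of the factors that switch the pathway on, MYB76 was called (interaction -2.82) and MYB28 (-1.02, adjusted p = 0.0164) and MYB29 (-0.439, adjusted p = 0.356) were not. At 6 d 18 of the 22 were lower in the mutant than in WT and 1 was higher. Without replicate 2 of the darkened mutant, 16 were called lower and 0 higher.

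**Figure D3:**
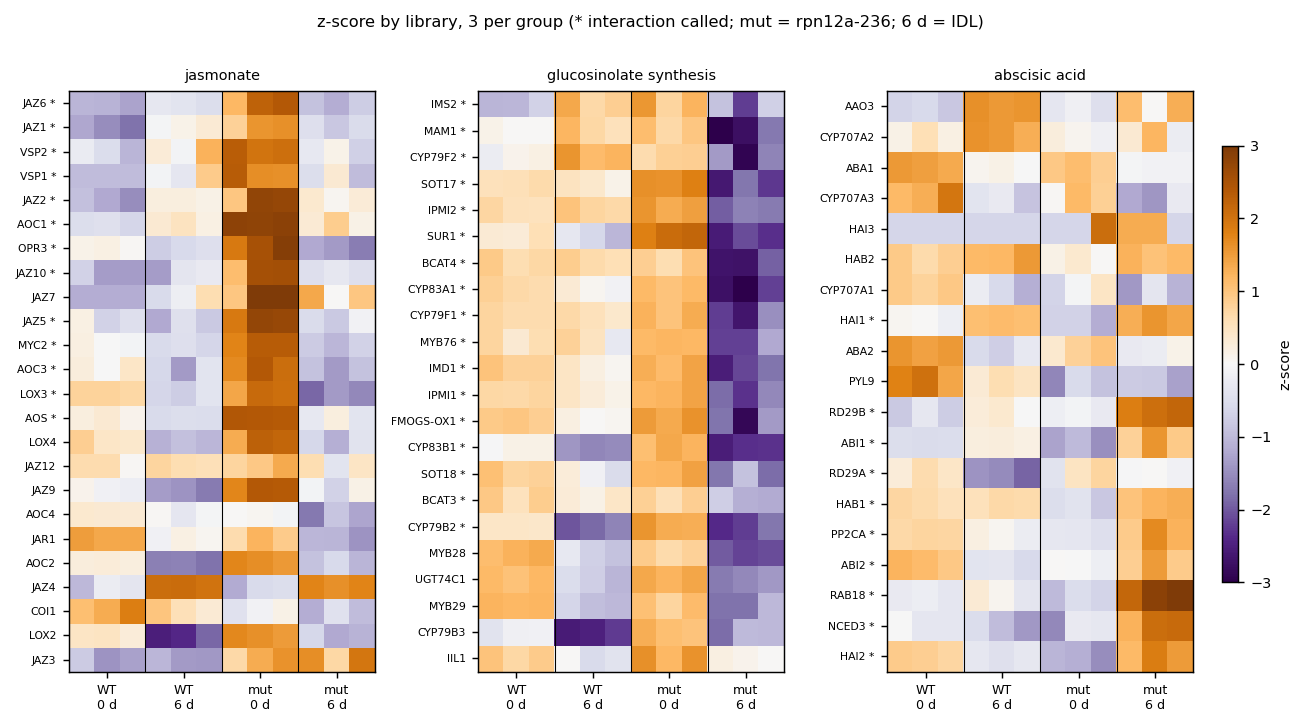
z-scores by library, 3 columns per group, for jasmonate genes, glucosinolate synthesis genes and ABA genes, ordered by interaction, with called genes starred. Orange is high and purple low. The mutant light columns lie above the WT light columns for 19 of 24 jasmonate genes, the mutant 6 d columns lie below the WT 6 d columns for 18 of 22 glucosinolate genes, and the mutant 6 d columns lie above the mutant light columns for the starred ABA genes other than RD29A.

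Genes of senescence itself mostly responded in the same direction in both genotypes. Of 9 genes of chlorophyll breakdown, 7 rose in each genotype, and 3 were called lower in the interaction (33.3%) and 0 higher. PPH, which removes the phytol tail, was at -0.781, -0.535 and -0.983 and then at 2.11, 2.18 and 2.21 in WT, and at -0.610, -0.602 and -0.676 and then at 0.810, 0.921 and 0.599 in the mutant. NYE1 and NYE2, the stay-green proteins that take magnesium out of chlorophyll, rose by 2.53 and 2.96 in WT and by 1.3 and 1.64 in the mutant, and neither interaction call held in every fit without 1 library (highest adjusted p of 0.0223 and 0.0120). All 42 photosystem and antenna genes fell in both genotypes, with medians of -2.99 in WT and -2.13 in the mutant, and 8 were called higher (19.0%) and 0 lower. Of 14 chlorophyll synthesis genes, CHLD, CAO and CRD1 were called higher. Of 10 senescence-associated markers, SAG12 and SAG13 were called lower. SAG12, a protease gene that marks senescing leaves, was at the floor in all 6 light libraries, at 2.46, 2.5 and 2.72 in darkened WT and at 0.746, 0.936 and 0.535 in the darkened mutant. Among 21 senescence NAC and WRKY factors 4 were called lower (19.0%) and 1, ATAF1, higher (4.76%). VNI2 and ATAF1 were opposite responders. Of those called lower, NAC087 and WRKY45 rose in both genotypes, by 2.53 and 2.39 in WT and 1.07 and 0.753 in the mutant.

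Autophagy genes rose in both genotypes, 27 of 29 in WT and 24 in the mutant, and ATG1A, ATG4B, ATG7 and ATG8A were called lower in the interaction (13.8%). ATG7 rose by 3.09 in WT and by 0.734 in the mutant, and ATG4B rose by 2.49 in WT and had -0.376 in the mutant (adjusted p = 0.201). By contrast, 7 of 25 genes of dark and sugar starvation were called higher (28.0%) and 0 lower, with medians of 1.2 in WT and 2.15 in the mutant. These included genes that break down branched-chain amino acids. BCAT2 rose by 1.33 in WT and 3.80 in the mutant. ETFQO, which takes electrons from the flavoprotein of ETFBETA, was at -0.442, -0.931 and -0.321 and then at -0.00935, -0.119 and -0.268 in WT, and at -1.05, -0.850 and -1.03 and then at 2.08, 1.60 and 3.13 in the mutant. MCCA and BCKDH-E1A1 had 0.125 and -0.561 in WT, which were not called, and rose by 2.73 and 2.62 in the mutant. Without replicate 2 of the darkened mutant, 11 of these 25 were called higher and 0 lower.

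Flavonoid, chaperone, salicylic acid, clock, auxin and growth genes were also listed. Of 13 flavonoid genes, 5 were called higher (38.5%) and 1 lower. One of the 5, the factor MYB12, was at the floor in all libraries other than WT light leaves and passed the filter on low values through that group alone, so its call follows from its WT fall. At 0 d 9 of the 13 were called lower in the mutant and 0 higher, and at 6 d 2 were lower and 0 higher. The difference of CHS was -2.39 in WT and -0.910 in the mutant, and that of CHI was -2.27 in WT and 0.158 in the mutant (adjusted p = 0.561). Both were lower in the mutant at 0 d, CHS by -0.890 and CHI by -2.04, and neither genotype difference was called at 6 d. The factor PAP1, with -0.171 in WT and -1.65 in the mutant, was the 1 called lower. Of 18 heat shock and chaperone genes, 5 were called lower (27.8%). Among them were CRT1, CNX1 and SHD of the endoplasmic reticulum, with -2.41, -2.16 and -1.94 in the mutant. HSP17.6C, also called, was at the floor in 8 of the 12 libraries, among them every mutant library. It passed the filter on low values through darkened WT, so its call follows from its WT rise. The SHD call did not hold in every fit without 1 library (highest adjusted p = 0.0126). PAD4 and EDS5 of the salicylic acid list fell in both genotypes, with -2.92 and -2.30 in the mutant against -1.19 and -0.836 in WT, and neither interaction call held in every fit without 1 library (highest adjusted p of 0.0173 and 0.0171). Among 17 clock genes RVE1, a MYB-like factor related to the core clock genes, was the 1 called, an opposite responder with -0.745 in WT and 1.3 in the mutant, whose WT response did not hold in every fit without 1 library (highest adjusted p = 0.0175). Of 24 Aux/IAA genes, 2 were called higher and 1 lower, and of 15 genes of cell growth 1 was called, XTH24.

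**Figure D4:**
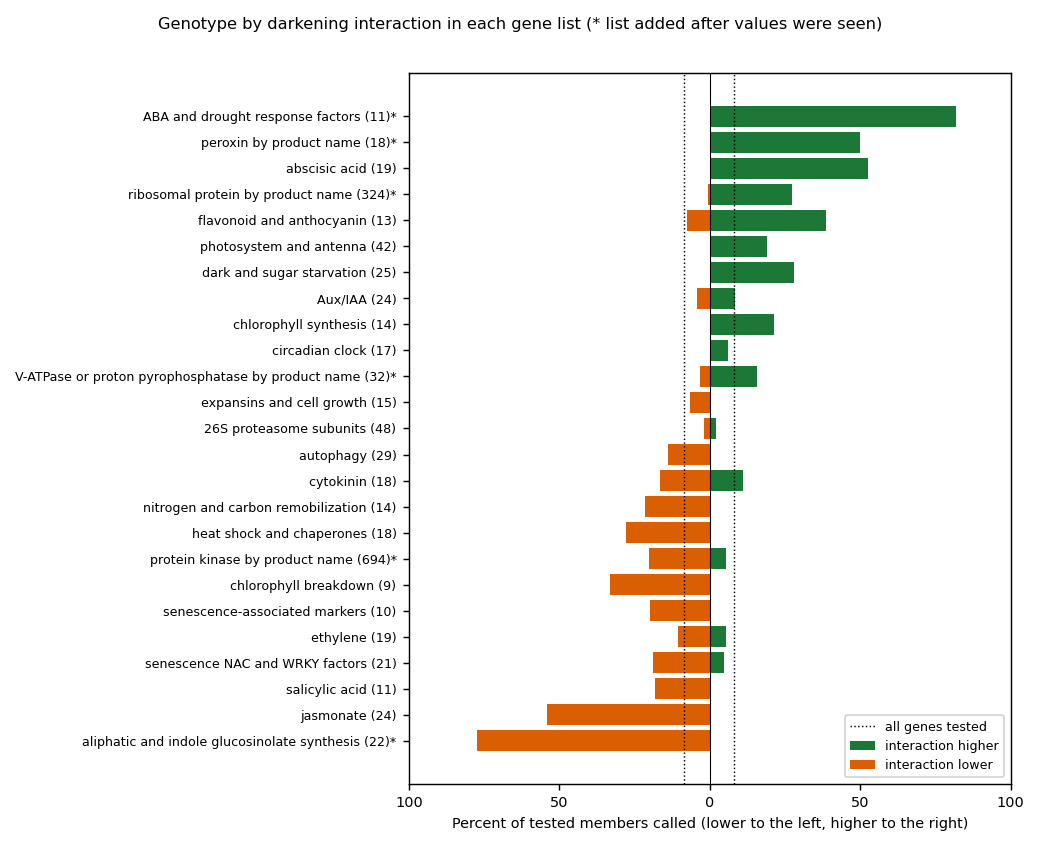
Percent of tested members of each gene list called in the interaction (x axis), to the left for a more negative and to the right for a more positive response in *rpn12a-236*, with the number of tested members in parentheses. Dotted lines mark the shares over all genes tested, 8.69% lower and 8.11% higher. Among the lists without an asterisk, jasmonate (54.2%) reaches furthest to the left and abscisic acid (52.6%) furthest to the right. Lists with an asterisk, among them glucosinolate synthesis and ABA and drought response factors, were put together after values had been seen, and their place follows in part from that choice.

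Other genes with high interactions were called in the response of 1 genotype alone. XGD1, a xylogalacturonan xylosyltransferase, was at -1.52, -1.47 and -1.7 in WT at 0 d and at 2.37, 2.53 and 2.36 at 6 d, and in the mutant at 0.497, -0.193 and 0.247 and then at 0.0387, 0.219 and -0.836. TOPP5, a type 1 phosphatase, rose by 3.69 in WT and had -0.854 in the mutant (adjusted p = 0.0275). BGAL2, a beta-galactosidase, went from 0.685, 0.832 and 0.754 to -2.42, -2.48 and -3.03 in WT and had 0.512 in the mutant (adjusted p = 0.0794). PEX22, which anchors a peroxisomal ubiquitin-conjugating enzyme, had -0.417 in WT (adjusted p = 0.330) and rose by 3.57 in the mutant. AVP1, the vacuolar proton pyrophosphatase, had -2.78 in WT, and its 1.16 in the mutant was outside the threshold (adjusted p = 0.0102).

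The time course shows where the means of the genotypes parted, as mean ± SD over 3 libraries. VNI2 was at -1.01 ± 0.0691 in the mutant and -0.0678 ± 0.301 in WT after 6 h in darkness. GLN1;2 was at -0.509 ± 0.311 and -0.571 ± 0.212 at 6 h, with the mutant the higher at 1 d (0.730 ± 0.221 against 0.0639 ± 0.279) and the lower at 3 d (-1.26 ± 0.240 against 0.792 ± 0.0365). GLN1;2 thus changed order within the course. HAI2 was lower in mean in the mutant up to 3 d (0.668 ± 0.358 against 1.3 ± 0.128, not called) and higher at 6 d. ABI2 was at 1.28 ± 0.202 in WT and 0.191 ± 0.449 in the mutant at 3 d in darkness. After 6 h MCCA was at 0.728 ± 0.271 in WT and 0.686 ± 0.344 in the mutant. ETFQO was then at 0.619 ± 0.419 in WT and 0.166 ± 0.397 in the mutant. The contrasts of these genes at 6 d thus hold for that time.

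**Figure D5:**
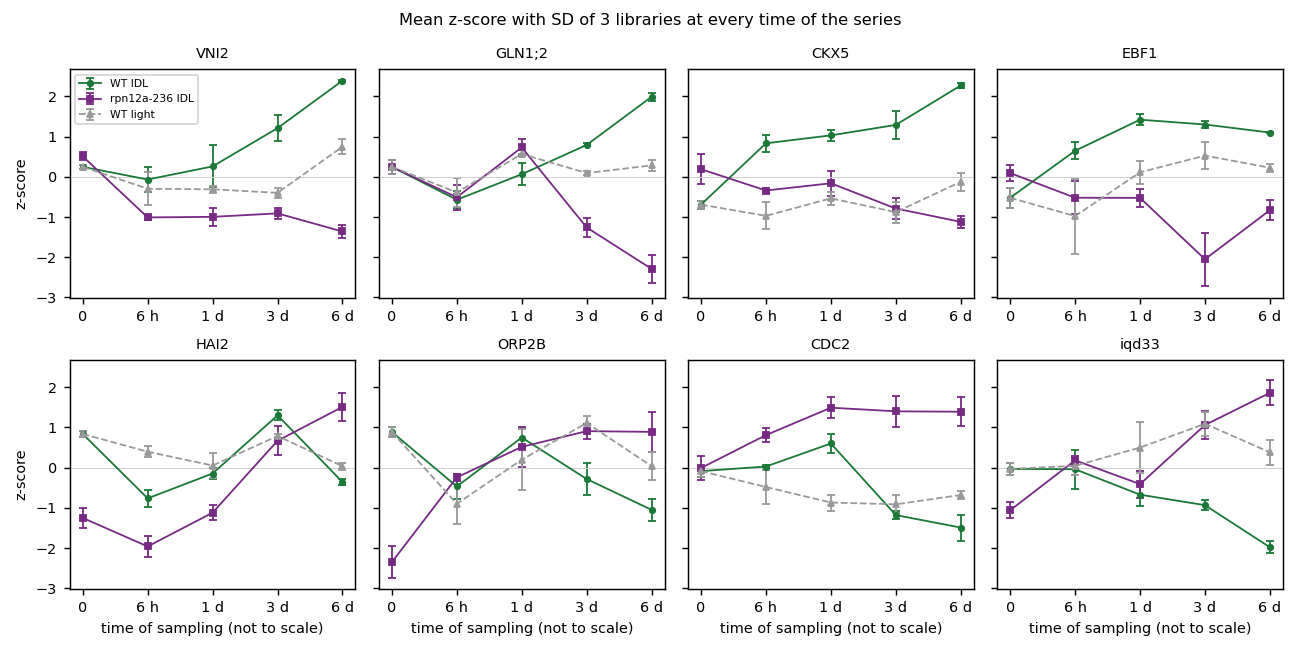
Mean z-score of 8 opposite responders (y axis, error bars are the SD of 3 libraries) at 0, 6 h, 1 d, 3 d and 6 d (x axis, not to scale) in WT IDLs, *rpn12a-236* IDLs and WT leaves in the light. For ORP2B the mutant starts below WT (-2.35 ± 0.398 against 0.887 ± 0.126) and ends above it (0.889 ± 0.501 against -1.05 ± 0.280).

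Of the 15 markers of leaf cell types, KAT1 of guard cells and SAG12 of senescing cells were called lower in the interaction (-1.1 and -1.82) and ATML1 of the epidermis higher (1.39), and at 0 d none of the 15 was called between the genotypes. The mesophyll markers CAB3, RBCS1A, RBCS3B and RCA fell in both genotypes, with interactions of 0.461, 1.01, 0.459 and 0.275 that were not called. At 6 d the phloem marker SUC2 (-1.71) and the cell division marker CDKB2;1 (-2.34) were lower in the mutant, as was SAG12 (-1.82), and ATML1 (0.783) and the mesophyll marker RBCS1A (1.04) were higher. The part of the cell-type make-up of the leaf in the results was not tested. Of the 5 other genes with homozygous changes in the line that were measured here, SAM1 was called higher (2.28) and AT1G34750 (-2.98) and AT1G58050 (-2.57) lower, and AT1G58050 was at its floor in all 9 libraries other than darkened WT. It passed the filter on low values through darkened WT alone, so its call follows from that group, and the call was lost in the fit to 30 libraries (adjusted p = 0.0837 in limma).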

How the data were processed

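RNA-seq was carried out on leaf blades of WT Col-0 and *rpn12a-236*, and 12 of 42 libraries enter the interaction at 6 d. Per the study's methods and processing notes, reads were quality-checked with FastQC 0.11.4, cleared of rRNA and trimmed, quantified with kallisto 0.43.0 against TAIR10, and variance-stabilized with DESeq2 1.14.1. The authors deposited the result as a score per gene, scaled to a mean of 0 and an SD of 1 over the 42 libraries. This removes levels and depth, gives every gene the same weight whatever its fold change, and leaves a shared lowest value, the floor, where several libraries had little or no signal. Mutant columns carry a line code and were matched to *rpn12a-236* as the only line besides Col-0. 26791 of 27050 gene IDs matched the RefSeq table of TAIR10.1, which gave gene names, positions and promoters.

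Genes with at least 3 of the 12 libraries above the floor were tested (23016). A model with 4 group means was fitted with limma 3.58.1 (R 4.3.3), without a replicate block. The interaction, both responses and the genotype differences at 0 d and 6 d were adjusted by Benjamini-Hochberg over all genes tested. Opposite responders had all of the interaction, the WT response and the mutant response at an adjusted p of at most 0.01, with responses of opposite sign. Named genes were, for each direction, the 10 opposite responders with a symbol whose smaller response was the largest, the 5 largest other interactions, up to 4 called members of each list and any opposite responder in it, and the genes with homozygous changes. One gene that this rule picked is not reported here. Other list members are named with values to describe their list. Labels give replicates as separate samples, and p-values measure the spread between these pools. The members and lists were chosen with earlier results of these data known. The sets of glucosinolate genes, ABA and drought factors, and those by product name, and the comparison at 3 d, were added after seeing the data. Alternatives were other sets of libraries, filters, thresholds, robust moderation, a replicate block, 6 d light as WT control and leaving out each library. Scripts were tested on simulated data. Figures were drawn with matplotlib 3.10.9.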

Additional observations from a re-analysis of the deposited data

Results flagged for a closer look

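An effect of darkness that differed between the genotypes in the interaction test of limma put the following genes here. In all, 3866 genes passed that test and 348 of them responded in opposite directions. The differences that follow are the mutant response less the WT response in z-score units, each with an adjusted p of at most 0.01, and single genes were not tested for an outlying library because each group has 3.

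Among the opposite responders with the largest responses that rose in WT and fell in the mutant, the values were -3.96 for AtIPCS2, -4.68 for COBL8, -4.90 for ARO4, -4.24 for NIT3, -4.02 for HAE, -4.41 for SULTR4;1, -4.36 for IMS2, -5.30 for STE14A, -4.62 for ZF3 and -4.95 for OPT1. Among the other genes with the highest interactions, the values were 4.27 for RAD51D, 3.94 for AVP1, 3.95 for AVA-P4, 3.98 for PEX22 and 3.92 for BGAL2. Among the other genes with the lowest interactions, the values were -4.65 for ELF4-L3, -4.66 for LSH2, -4.55 for TOPP5, -4.36 for XGD1 and -4.44 for HAP8. LSH2 was at the floor in 7 of the 12 libraries, among them all of WT light and darkened mutant leaves. It passed the filter on low values through darkened WT, where it was high. Among opposite responders that fell in WT and rose in the mutant, the values were 2.84 for ATNTT2, 3.48 for OZF1, 2.80 for CDC2, 5.17 for ORP2B, 3.17 for FASS, 4.86 for iqd33, 4.76 for ETFBETA, 3.46 for WIP2 and 3.57 for MAN7. For ABA and drought response factors, the values were 2.28 for ABF2, 2.93 for PUB19, 2.57 for NAC032, 3.00 for P5CS1, 3.74 for GBF3, 2.95 for HB-12, 1.74 for ABF3 and 2.62 for P5CR. For aliphatic and indole glucosinolate synthesis, the values were -4.04 for CYP79F2, -3.64 for SOT17 and -4.33 for MAM1. For 26S proteasome subunits, the values were -3.46 for RPN3b and 0.856 for RPN5b.

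For Aux/IAA genes, the values were 2.71 for IAA3, -1.28 for IAA18 and 2.57 for IAA11. For ABA genes, the values were 3.95 for HAI2, 3.27 for NCED3, 2.70 for ABI2 and 3.14 for RAB18. For autophagy, the values were -2.86 for ATG4B, -1.72 for ATG1A, -1.23 for ATG8A and -2.36 for ATG7. For chlorophyll breakdown, the values were -1.32 for NYE2, -1.22 for NYE1 and -1.53 for PPH. For chlorophyll synthesis, the values were 3.35 for CHLD, 1.33 for CAO and 1.11 for CRD1. For circadian clock, the value was 2.04 for RVE1. For cytokinin, the values were -4.28 for CKX5, 1.65 for ARR8, 1.58 for ARR9 and -1.44 for CKX7.

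For dark and sugar starvation, the values were 2.60 for MCCA, 3.18 for BCKDH-E1A1, 2.81 for ETFQO and 2.98 for DIN2. For ethylene, the values were -2.54 for EBF1, -1.34 for ETR2 and 1.83 for ACS6. For expansins and cell growth, the value was -2.12 for XTH24. For flavonoid and anthocyanin, the values were -1.48 for PAP1, 1.66 for MYB12 (above the floor in WT light leaves alone), 2.43 for CHI and 1.48 for CHS. Among genes with other homozygous changes in the line, the values were 2.28 for SAM1, -2.98 for AT1G34750 and -2.57 for AT1G58050 (above the floor in darkened WT alone). For heat shock and chaperones, the values were -2.85 for HSP17.6C (at the floor in every mutant library), -1.74 for CRT1, -1.41 for SHD and -1.86 for CNX1. For jasmonate, the values were -3.60 for JAZ1, -3.63 for JAZ6, -3.26 for AOC1, -3.52 for VSP2 and -3.39 for VSP1.

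For nitrogen and carbon remobilization, the values were -4.28 for GLN1;2, -3.21 for NRT1.7 and -3.13 for GLN1;1. For photosystem and antenna, the values were 1.69 for LHCB1.3, 1.55 for PSAE2, 1.97 for PSBO2 and 1.49 for LHCB4.1. For salicylic acid, the values were -1.72 for PAD4 and -1.46 for EDS5. For senescence NAC and WRKY factors, the values were 3.36 for ATAF1, -1.64 for WRKY45, -4.01 for VNI2 and -1.46 for NAC087. For senescence-associated markers, the values were -3.10 for SAG13 and -1.82 for SAG12.

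The calls of LHCB1.3, LHCB4.1, PSAE2, IAA18, HSP17.6C, SHD, SAG13, PAD4, EDS5, CRD1, ACS6, NYE1, NYE2, ATG8A and RPN5b, 15 of the 103 in all, did not hold in every fit that left out 1 library.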

How the results depend on the processing

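No interaction of a named gene changed direction under any of the alternatives run. The WT difference did for some with WT leaves of 6 d light as control, including the opposite responders FASS (-1.35 to 0.439) and ETFBETA (-1.95 to 0.201) and, among genes whose WT difference was not called, NCED3 (-0.738 to 0.569), BCKDH-E1A1 (-0.561 to 0.788) and PEX22 (-0.417 to 0.150). Lower interactions outnumbered higher ones (1999 against 1867) except at 0.05 and in the fits to 30 and 42 libraries (2704 and 2684 higher, 2654 and 2646 lower). With 0.001 as the threshold on the adjusted p in place of 0.01, the interaction was called for 1323 genes (611 higher and 712 lower) and 104 were opposite responders (54 that rose and 50 that fell in WT), and the genotype difference was called for 882 (0 d), 3777 (3 d) and 4018 (6 d) genes. At 0.05 the interaction gave 7035 genes (3535 and 3500), the opposite responders 760 (401 and 359) and the genotype difference at 0 d 5745. Leaving out 1 library at a time gave 2620 to 4321 genes with an interaction (1263 to 2096 higher, 1349 to 2225 lower) and 256 to 412 opposite responders (140 to 229 that rose and 115 to 183 that fell in WT). The same fits gave 9817 to 12195 genes for the WT response, 10174 to 11612 for the mutant response, and 1560 to 3675, 4908 to 5720 and 5540 to 7631 for the genotype difference at 0, 3 and 6 d. Of the 348 opposite responders, 243 to 292 were also opposite responders with 1 library left out. Of the 38 named, 26 were so in every such fit. Fitting 30 libraries (0 d light and IDLs of every time) or all 42 gave 5358 and 5330 genes with an interaction and 471 and 439 opposite responders, of which 300 and 291 were among the 348. With WT leaves of 6 d light as the WT control, 442 genes were opposite responders and 246 of them were among the 348. Without a filter on low values, without genes that had a library at the floor and with robust moderation the interaction counts were 3495, 3909 and 3719.

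With the replicate number as a block the interaction was called for 3048 genes and 302 were opposite responders, of which 277 were among the 348. The calls fell from 5 to 2 for heat shock and chaperones, from 8 to 5 for photosystem and antenna, from 88 higher and 2 lower to 59 higher and 0 lower for ribosomal proteins, from 3 to 1 for cell type markers and from 2 to 1 each for proteasome subunits and salicylic acid, and moved by at most 1.5 times in the other lists. Over all alternatives, 147 list counts moved by more than 1.5 times and 420 did not. Libraries of the same number showed no shared deviation (correlations of -0.0784 to 0.0425 over 18 pairs of same-numbered libraries). With 3 libraries per group this cannot settle whether the numbers pair the samples. Depth is unknown for z-scores. In simulated data with 4000 of 23016 genes changed, interactions of 2, 4, 8 and 16 replicate SDs were recovered for 2.1%, 25.2%, 92.9% and 100% of genes. With 200 genes changed, recovery was 2%, 2%, 46% and 98%. Small interactions are thus mostly missed with 3 libraries per group. The simulation gave all groups of a gene the same SD, whereas the measured spread was highest in darkened *rpn12a-236*.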
